A study of Mus musculus with 18 samples.

Results

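Il6, Lif, Osm and Clcf1, which encode cytokines of the interleukin 6 (IL-6) family, and Il6st and Il6ra, which encode chains of their receptors, were followed in macrophages grown from the bone marrow of mice labelled as knockouts of interleukin 10 (IL-10), here called BMDMs. These 6 genes, of the 24485 listed in the quantification files, were chosen by symbol as a family and not by a cut on their values. The choice was made with earlier results of these data known. All 6 were found in every library. RNA-seq was performed on 18 libraries in 6 groups of 3. The questions were how the BET inhibitor (+)-JQ1 changes the response of the family to lipopolysaccharide (LPS), and how this compares with exogenous IL-10. Every group came from Il10-/- mice on the C57BL/6J background, given in the methods of the study as 12-week-old males, so every group carried the same knockout label and no wild-type cells were compared here. Bone marrow was grown into macrophages in L929 conditioned medium. Unstimulated cells received no pretreatment and then buffer (PBS). The JQ1 group received 500 nM (+)-JQ1 and the IL-10 group 10 ng/mL IL-10 for 12 hours, followed by PBS. In the groups named LPS, LPS + JQ1 and, likewise, LPS + IL-10, the same 3 pretreatments were followed by 50 ng/mL LPS over 4 hours. The labels call the cells without pretreatment untreated, whereas the methods name a vehicle control. LPS is a component of bacterial outer membranes that activates macrophages through Toll-like receptor 4, and JQ1 is a small molecule that occupies the bromodomains with which BET proteins bind acetylated histones.

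Cytokines of this family share the signalling chain gp130, the product of Il6st. IL-6 first binds its own receptor chain, encoded by Il6ra, whereas leukemia inhibitory factor (LIF), oncostatin M (OSM) and cardiotrophin-like cytokine factor 1 (CLCF1) pair gp130 with other partner chains. Engaged gp130 activates JAK kinases and the transcription factor STAT3, and STAT3 in turn induces the inhibitor Socs3. Activated macrophages are a well-known source of IL-6, and IL-6 drives the acute phase response, plasma cell maturation and the differentiation of T cells in inflamed tissue.

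In the mm9 genome build, the gene of IL-6 lies on chromosome 5 (30339701 to 30346508, plus strand), Il6st on chromosome 13 (113265216 to 113297068, plus strand) and Il6ra on chromosome 3 (89673246 to 89717084, minus strand). Osm (4136423 to 4141029) and Lif (4157560 to 4172517) are neighbours on the plus strand of chromosome 11, with 16530 bases and 0 annotated genes between them. Clcf1 lies on the plus strand of chromosome 19 (4214238 to 4223490) and overlaps an annotated microRNA gene on the other strand, so its reads could include a few of that gene.

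The 250 bases before the transcription start of Il6 and Lif are shown because both genes went from a few reads to clear expression with LPS. They were read from RefSeq on the GRCm38.p6 build, in which 4 of the 6 genes were matched (Il6, Lif, Il6st and Il6ra), at chr5:30012864-30013113 for Il6 and chr11:4257318-4257567 for Lif, both on the plus strand. Capitals mark matches, on either strand, to the letters GGNNTTTCC (NF-kB), TGANTCA (AP-1), TGACGTC (a cyclic AMP response element, CRE) and TTNNGCAA (C/EBP).
Il6: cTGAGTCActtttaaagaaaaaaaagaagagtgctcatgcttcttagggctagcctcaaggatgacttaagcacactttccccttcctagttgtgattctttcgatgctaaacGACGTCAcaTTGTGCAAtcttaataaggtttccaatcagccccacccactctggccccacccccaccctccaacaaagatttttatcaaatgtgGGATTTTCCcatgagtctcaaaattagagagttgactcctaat
Lif: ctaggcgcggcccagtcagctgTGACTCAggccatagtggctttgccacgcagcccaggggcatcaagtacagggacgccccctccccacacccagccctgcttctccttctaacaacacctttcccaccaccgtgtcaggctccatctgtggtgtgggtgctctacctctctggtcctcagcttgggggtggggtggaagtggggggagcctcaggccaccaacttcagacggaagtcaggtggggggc
The Il6 stretch held 1 match to each of the 4 motifs, at positions -43 to -35 (NF-kB), -249 to -243 (AP-1), -137 to -131 (CRE, on the minus strand) and -128 to -121 (C/EBP), counted back from the start, and none of them overlapped. Lif held 1 match, to AP-1, at -228 to -222. The same windows of Il6st and Il6ra held none of these letters, and none of the 4 windows held TTCNNNGAA (STAT) or GAAANNGAA (IRF). Among 32851 promoter windows of the same length, 4.93% held the NF-kB letters, 6.75% AP-1, 2.78% CRE, 9.56% C/EBP, 7.02% STAT and 7.13% IRF. Such matches describe the sequence and do not show binding.

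Total expected counts per library ran from 6781952 to 28289498, and 3 counts in a library corresponded to 0.106 to 0.442 CPM. Counts normalised by size factors are used below to compare 1 gene between groups, and TPM, which is scaled by length, to compare genes with each other. All 8 macrophage markers examined were above 1 TPM in every library, with summed levels of 14300 to 29100 TPM. Single markers moved, however: during LPS stimulation 6 of the 8 were lower and 1 was higher with JQ1, led by Fcgr1, an Fc receptor gene (mean 8084 to 301.7 normalised counts, log2 fold change -4.74), and Itgam, an integrin gene (11000 to 2279, -2.27), while with IL-10 both were higher (0.63 and 0.70) and 1 other was lower. Their part in the results below was not tested. Of all genes tested, 57.3% were called with JQ1 and 17.2% with IL-10 during LPS stimulation. The targeted gene Il10 still gave 27.1 to 177 normalised counts per library, with 53.7 to 74.9 under LPS, 118 to 164 under LPS + JQ1 and 134 to 177 under LPS + IL-10, and without wild-type cells the label could not be checked further. The values come from bulk RNA, in which fewer cells making a transcript and less of it per cell cannot be told apart. Of the genes called with LPS, 49.0% were higher with median-of-ratios factors but 20.1% under total-count scaling, which shifted the median log2 fold change of expressed genes from -0.067 to -0.997. Among genes called with JQ1 during LPS stimulation, the share that were higher went from 42.5% to 64.9% (median -0.10 to 0.28). For IL-10 during LPS stimulation it went from 48.7% to 71.1% (median -0.02 to 0.08). In the other comparisons the share of higher calls went from 48.0% to 26.8% for JQ1 without LPS, from 42.9% to 61.2% for LPS + JQ1 against LPS + IL-10, from 47.1% to 25.6% for LPS in JQ1-pretreated cells and from 49.6% to 21.0% for LPS in IL-10-pretreated cells. For the interactions with LPS it went from 42.6% to 85.4% with JQ1 (54.7% with TMM factors) and from 53.7% to 73.6% with IL-10. Every change called below among the 6 genes kept its direction under total-count scaling.

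In resting macrophages the receptor chains were well expressed and the cytokines, other than Osm, were near the limit of detection. Il6ra was at 62.3 ± 1.99 TPM (SD, n = 3) and Il6st at 54.5 ± 2.79, and their libraries did not overlap. Osm, a cytokine that acts on stromal cells and hepatocytes through OSM receptor and gp130, was at 7.64 ± 0.294 TPM. Clcf1, a cytokine with actions on neurons and B cells, was at 0.667 ± 0.189 TPM, Il6 at 0.270 ± 0.376 and Lif at 0.0367 ± 0.0635, and neighbours among these 3 overlapped between libraries. The few Il6 reads of resting cells were unevenly spread, with 6, 0 and 1 counts in replicates 1, 2 and 3. All 4 Lif counts of this group were also in replicate 1. The same library had 173.6 normalised counts of Socs3, against 23.7 and 36.2 in the other two.

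**Figure D1:**
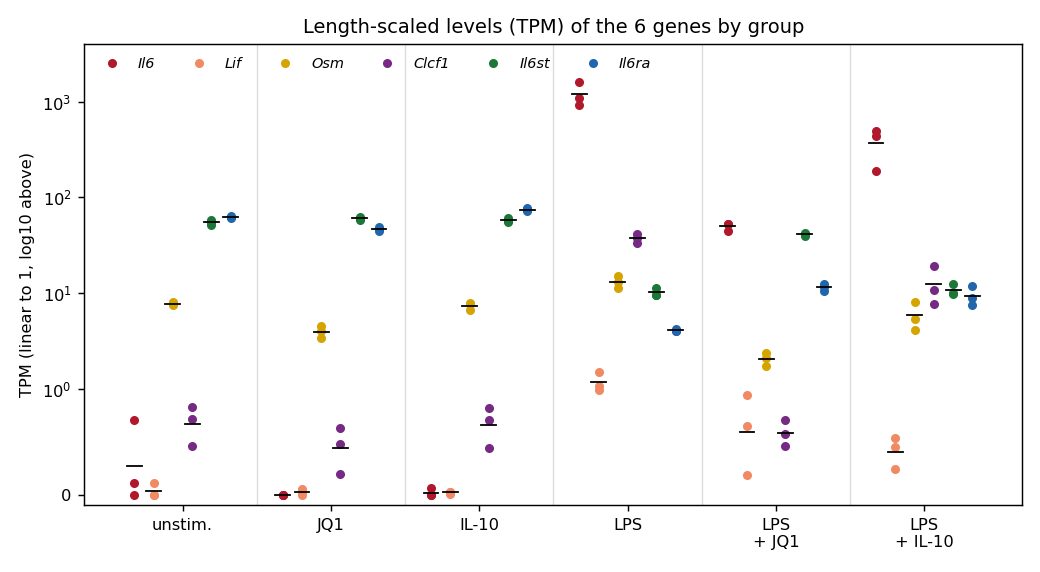
TPM (y axis, linear to 1 and log10 above) of the 6 genes in each group (x axis). Points are libraries and bars are means of 3. In unstimulated cells Il6ra and Il6st lie highest, at 62.3 and 54.5 TPM, and with LPS Il6 lies highest, at 1205 TPM.

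LPS raised all 4 cytokines and lowered both receptor chains. All 6 genes passed the test (DESeq2 Wald test, Benjamini-Hochberg adjusted p under 0.05), where 64.5% of all genes tested did. Normalised counts of Il6, the founding cytokine of the family, were 4.63, 0 and 0.670 in the unstimulated libraries and 13640, 11190 and 17660 with LPS. No unstimulated library came near an LPS library. Counted over the 3 libraries, the level was 6760-fold higher (95% interval 3280 to 16800, counting error only), and the fitted log2 fold change was 12.76 (SE 0.696, adjusted p 5.95e-74). Without unstimulated replicate 1, which held 6 of the 7 resting reads, the fitted value was 14.78, so the size of the rise rests on that library. Clcf1 had 10.0, 8.46 and 5.36 normalised counts without LPS and 909.1, 705.2 and 731.8 with it, a 100-fold difference (68.3 to 154) with an adjusted p of 6.52e-58.

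Lif, whose product maintains stem cells and acts on many tissues, reached only 50.9, 51.7 and 67.5 normalised counts with LPS, or 36, 50 and 55 reads. Against 4 reads in all unstimulated libraries this was 47.9-fold higher (18.3 to 178; DESeq2 adjusted p 3.78e-10). All 4 were in replicate 1, and without it the fitted log2 value went from 5.59 to 8.18 against a group at 0 reads, which is no bound of a fold. Osm differed from the other cytokines in that it was already present in resting cells, with 93.3, 96.4 and 97.2 normalised counts. It rose to 258.7, 280.2 and 294.7 with LPS, a log2 fold change of 1.54 (SE 0.214, adjusted p 2.10e-12), which was 0.61 under total-count scaling (adjusted p 0.00559).

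The receptor chains moved the other way. Il6st, the shared gp130 chain, fell from 2057, 2070 and 2142 normalised counts to 673.0, 638.0 and 683.9, which left 31.8% of the resting level (log2 fold change -1.66, SE 0.0600, adjusted p 1.76e-163). Il6ra, the IL-6 binding chain, fell from 1438, 1551 and 1361 to 169.7, 168.5 and 147.3, or 11.2% of the resting level (-3.16, SE 0.133, adjusted p 3.53e-123). Groups did not overlap for either gene. The 4 cytokines together rose from 8.62 ± 0.549 to 1257 ± 362 TPM, whereas the 2 receptor chains together went from 117 ± 0.811 to 14.2 ± 0.928 TPM. With LPS the order by TPM was Il6 (1205 ± 359), Clcf1 (37.3 ± 3.798), Osm (13 ± 1.78), Il6st (10.1 ± 0.967), Il6ra (4.05 ± 0.110) and Lif (1.18 ± 0.277), and no neighbours in this order overlapped between libraries.

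**Figure D2:**
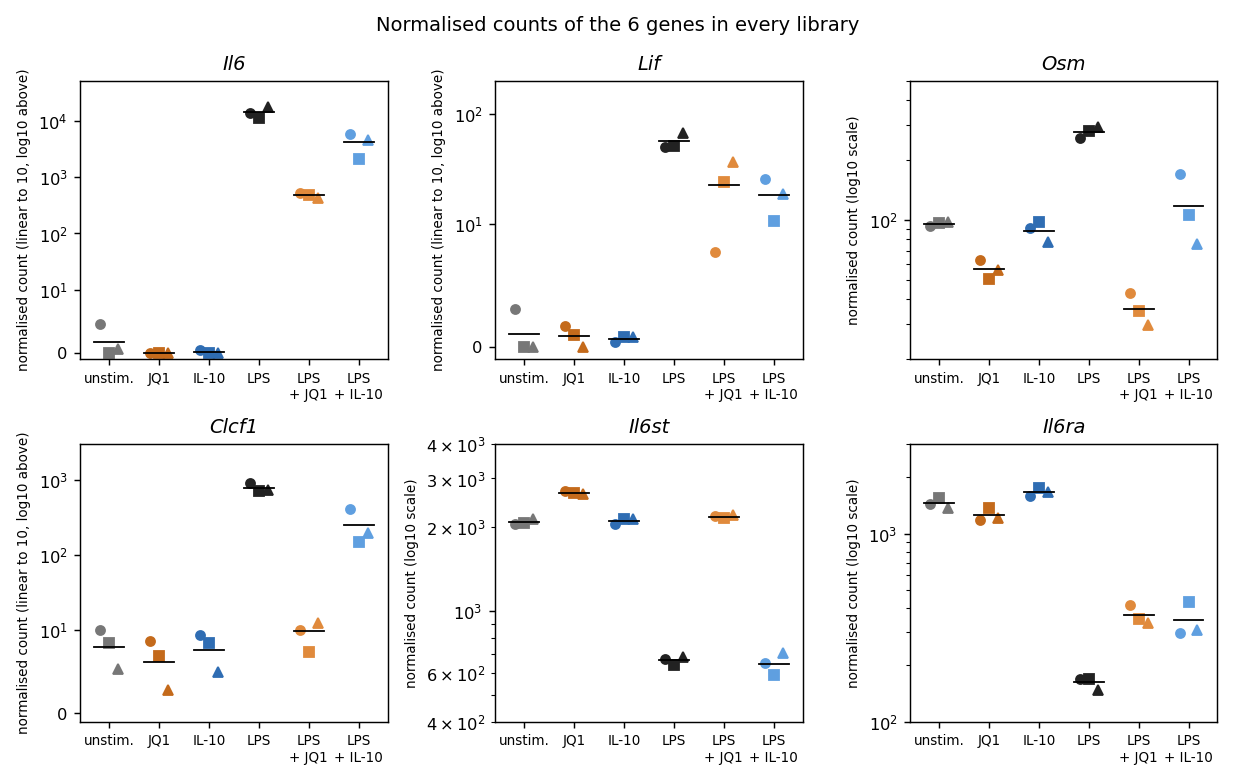
Normalised counts (y axis, log10, or linear to 10 and log10 above for Il6, Lif and Clcf1) in every library of the 6 groups (x axis). Circles, squares and triangles are replicates 1, 2 and 3 and bars are means. With LPS + JQ1 Clcf1 lies at 7.37 to 12.3 counts, beside the unstimulated libraries at 5.36 to 10.0, and Il6st lies at 2156 to 2215.

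Genes outside the family that are used as markers of other cells also moved with LPS, and their part in these results was not tested. The summed level of 6 fibroblast markers was 5.04 to 10.3 TPM in unstimulated cells, 17.5 to 19.7 TPM with LPS and 2.23 to 7.23 TPM with LPS + JQ1. With LPS + IL-10 it was 19.8 to 20.9 TPM. Of these markers, Pdgfrb, which encodes a growth factor receptor, had 762.4 to 988.3 normalised counts with LPS and 16.8 to 36.4 with LPS + JQ1, while the fibroblast receptor gene Pdgfra stayed under 1 TPM in every library. Pdgfrb made up most of the sum with LPS, at a mean of 13.3 TPM. With LPS 2 of the 6 markers were called higher, where 64.5% of all genes tested were called. The collagen genes Col1a1 and Col1a2 were not called (log2 fold change 0.08 and 0.26, DESeq2 adjusted p 0.903 and 0.510). With JQ1 during LPS stimulation 4 of the 6 fibroblast markers were lower, where 57.3% of all genes tested were called. Among 4 endothelial markers, summing to 7.48 to 9.62 TPM with LPS and 0.0400 to 0.110 TPM with LPS + JQ1, Cdh5, Tek and Emcn stayed under 1 TPM in every library. With LPS 2 of the 2 endothelial markers tested were higher, among them Cdh5 (log2 fold change 2.42, DESeq2 adjusted p 0.0003). With JQ1 during LPS stimulation 2 of 2 tested were lower. The 5 T cell markers summed to 4.27 to 4.86 TPM with LPS and 0.390 to 1.21 TPM with LPS + JQ1, and Cd3d, Cd3e and Cd3g stayed under 1 TPM throughout. Most of the sum with LPS was Lck, a kinase gene, at a mean of 4.11 TPM. Cd5 was lower with LPS than in unstimulated cells (log2 fold change -1.23, DESeq2 adjusted p 0.0243). B cell, neutrophil, mast cell and dendritic cell markers summed to at most 10.2 TPM in any library, with Ly6g and Tpsb2 at 0 in all of them. With LPS 2 of 4 dendritic cell and 2 of 2 mast cell markers tested were called higher. Of the others tested, 1 of 4 B cell markers was lower and 0 of 2 neutrophil markers were called.

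JQ1 before LPS lowered all 4 cytokines and raised both receptor chains against LPS alone. All 6 genes passed the test (4 lower and 2 higher), against 57.3% of all genes tested, and their libraries did not overlap between the 2 groups. Il6 had 522.4, 487.6 and 428.4 normalised counts with LPS + JQ1. This was 3.39% of the LPS level, or 3.83%, 4.36% and 2.43% in replicates 1, 2 and 3 (log2 fold change -4.88, SE 0.419, DESeq2 adjusted p 2.74e-30). Il6 was nonetheless still induced: with JQ1 alone there were 0 reads in all 3 libraries, and with LPS + JQ1 it was at least 173-fold above a floor of 3 counts in each library.

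Clcf1 showed the largest fall of the 6 genes. Its normalised counts were 9.94, 7.37 and 12.3 with LPS + JQ1, 1.26% of the LPS level (log2 fold change -6.32, SE 0.407, adjusted p 7.64e-53). These libraries overlapped with the unstimulated ones. Against JQ1 alone (8.65, 6.90 and 2.75) the difference did not pass the test (0.68, 95% interval -0.34 to 1.70, DESeq2 adjusted p 0.264), with 26 against 20 reads in all. Osm fell to 43.1, 34.8 and 29.5, or 12.9% of the LPS level (-2.95, SE 0.246, adjusted p 4.21e-32). Every LPS + JQ1 library lay below the lowest unstimulated library for Osm, and the group mean was 37.4% of the unstimulated mean.

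The effect on Lif was smaller and less even. Its normalised counts were 7.73, 24.2 and 36.9 with LPS + JQ1, which left 15.2%, 46.9% and 54.7% of the LPS level in replicates 1, 2 and 3. The fall passed the test (log2 fold change -1.31, SE 0.506, DESeq2 adjusted p 0.0181), but the call was lost in 5 alternatives. Among these were total-count scaling (-0.94, adjusted p 0.125) and the fits without LPS + JQ1 replicate 1 (-0.90, adjusted p 0.0654) or LPS replicate 3 (-1.17, adjusted p 0.0943).

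JQ1 raised Il6st during LPS stimulation. It had 2194, 2156 and 2215 normalised counts with LPS + JQ1, 329% of the LPS level (log2 fold change 1.72, SE 0.0610, adjusted p 2.55e-174). Its place against unstimulated cells turned with the scaling. By normalised counts it was at 105% of their level, with no overlap, whereas by TPM it was lower (39.4 to 42.3 against 51.8 to 57.4), and also by CPM (132.5 to 133.4 against 180.5 to 194.4). Il6ra rose in part, to 418.6, 352.8 and 336.1 normalised counts, 228% of the LPS level (1.19, SE 0.139, adjusted p 7.87e-17) but 25.5% of the unstimulated level. By TPM the receptor chains together (52.5 ± 1.04) stood beside the cytokines together (53.0 ± 4.73), where with LPS alone they were at 14.2 and 1257 TPM.

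IL-10 before LPS also lowered the 4 cytokines, but left Il6st where LPS had brought it. Of the 6 genes 5 passed the test (4 lower and Il6ra higher), against 17.2% of all genes tested. Il6 had 5802, 2061 and 4462 normalised counts with LPS + IL-10, or 29.0% of the LPS level (log2 fold change -1.79, SE 0.417, DESeq2 adjusted p 0.000266). All 3 libraries lay below the lowest LPS library, but the call was lost when replicate 3 of every group was left out (-1.66, adjusted p 0.103). Clcf1 was at 400.6, 149.0 and 192.0, or 31.6% of the LPS level (-1.66, SE 0.299, adjusted p 7.30e-07). Osm was at 170.5, 106.4 and 75.7, or 42.3% (-1.26, SE 0.215, adjusted p 1.32e-07).

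Lif had 25.7, 10.6 and 18.9 normalised counts with LPS + IL-10, or 32.5% of the LPS level (-1.61, SE 0.517, adjusted p 0.0141). This call rested on few reads (19, 7 and 21) and was lost in 3 alternatives. Among these were the fits without LPS replicate 3 (-1.47, adjusted p 0.0980) or LPS + IL-10 replicate 2 (-1.36, adjusted p 0.101). For Il6, Lif and Clcf1 the share left with IL-10 was highest in replicate 1 (42.5%, 50.5% and 44.1%) and lowest in replicate 2 (18.4%, 20.6% and 21.1%). Il6st had 649.6, 589.8 and 704.2 normalised counts, with a 95% interval of the log2 difference from LPS of -0.16 to 0.11 (adjusted p 0.891). Il6ra rose to 296.4, 433.2 and 306.5, or 213% of the LPS level (1.08, SE 0.141, adjusted p 8.47e-13).

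**Figure D3:**
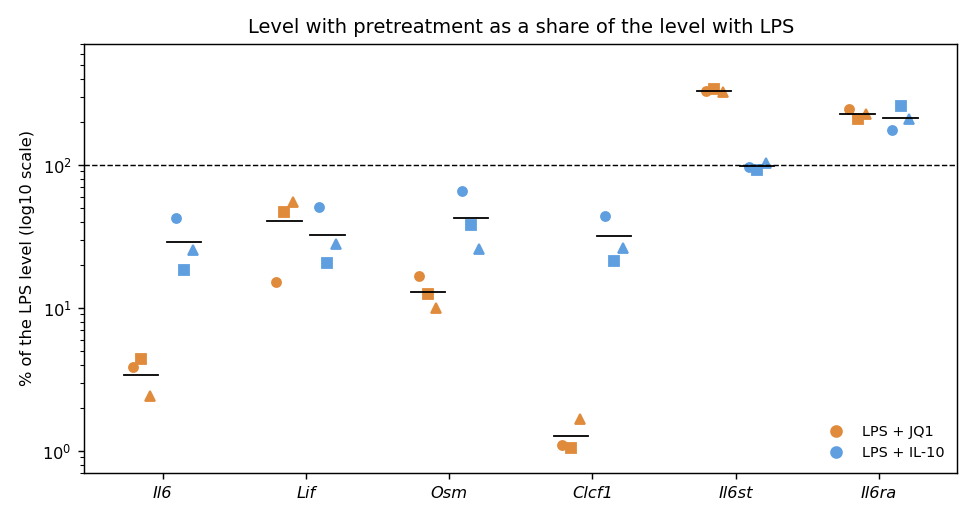
Level with LPS + JQ1 (orange) or LPS + IL-10 (blue) as a percentage of the level with LPS in the same-numbered library (y axis, log10) for the 6 genes (x axis). Circles, squares and triangles are replicates 1, 2 and 3, bars are ratios of means and the dashed line is the LPS level. Il6 lies at 3.39% with JQ1 and 29.0% with IL-10, and Il6st at 329% and 97.4%.

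Set against each other under LPS, JQ1 and IL-10 differed for 4 of the 6 genes, where 55.3% of all genes tested were called. With JQ1, Il6 was lower than with IL-10 (log2 difference -3.10, SE 0.419), as were Clcf1 (-4.66, SE 0.410, DESeq2 adjusted p 9.17e-29) and Osm (-1.69, SE 0.255, adjusted p 1.40e-10). Il6st was higher with JQ1 (1.74, SE 0.0610, adjusted p 1.71e-177). Lif did not pass (0.30, 95% interval -0.75 to 1.35, adjusted p 0.673). At its low counts this interval is wide, and its upper end lies above a 2-fold higher level with JQ1. Il6ra did not pass either (0.11, interval -0.15 to 0.36, adjusted p 0.510), although total-count scaling gave a call, with the JQ1 group higher (0.39, adjusted p 0.00451). It was called in 5 alternatives in all, among them the fit without LPS + IL-10 replicate 2 (0.29, adjusted p 0.0304).

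**Figure D4:**
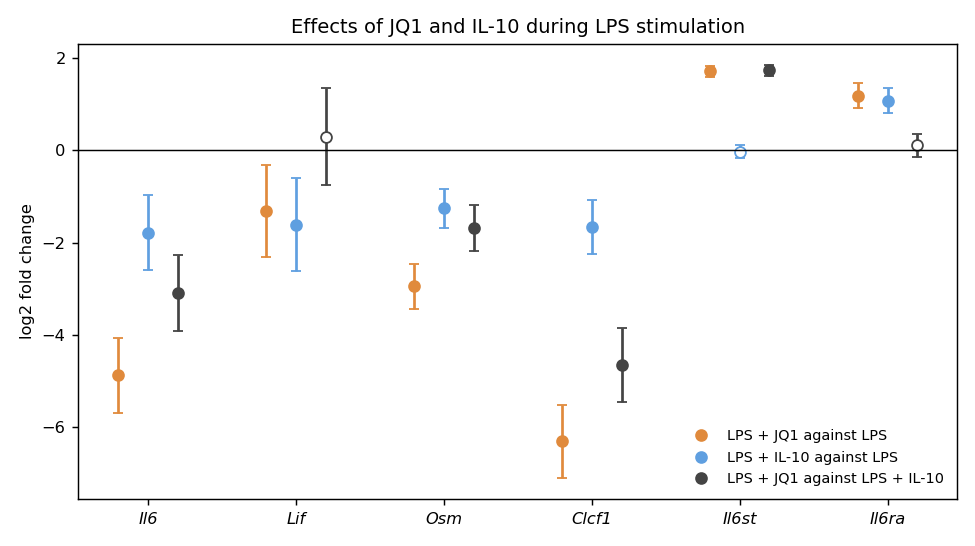
Fitted log2 fold changes (y axis, DESeq2, bars are 95% intervals) of the 6 genes (x axis) for LPS + JQ1 against LPS, LPS + IL-10 against LPS and the direct comparison of both. Filled points passed an adjusted p of 0.05. The largest fall is that of Clcf1 with JQ1 (-6.32), and Lif and Il6ra are open in the direct comparison.

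Without LPS fewer of the 6 genes were called. JQ1 alone was called for 3 of the 6 genes, where 45.7% of all genes tested were called. Osm fell to 63.1, 50.3 and 55.9 normalised counts, or 59.0% of the unstimulated level (log2 fold change -0.76, SE 0.233, DESeq2 adjusted p 0.00341), a call lost without replicate 2 of every group (adjusted p 0.103). Il6st rose to 2699, 2666 and 2628, or 128% (0.35, SE 0.0510, adjusted p 9.58e-11), a rise of 0.14 that did not pass with limma on TPM (adjusted p 0.193). The third call, of Il6, rested on 7 unstimulated reads against 0 (adjusted p 0.0214). Across both groups only unstimulated replicate 1, with 6 reads, lay above the floor of 3 counts, so no fold is given. The call was lost without unstimulated replicate 1 (adjusted p 0.535), without any single JQ1 library (0.0548 to 0.0639) and with the edgeR quasi-likelihood test (0.291). Il6ra had 1174, 1368 and 1215 normalised counts, and its interval ran from -0.43 to 0.02 (adjusted p 0.125). It was called lower in 5 alternatives, namely total-count scaling (-0.39, adjusted p 0.00167), only the groups compared (-0.22, adjusted p 0.0257) and the 3 limma fits on TPM (adjusted p 0.00509 to 0.0114).

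IL-10 alone called 0 of the 6 genes with DESeq2, where 2.81% of all genes tested were called. At an unadjusted p under 0.05 there was 1, Il6, with 1 read against 7. The edgeR and limma fits called 0 as well. The 95% interval of the log2 difference was -0.09 to 0.11 for Il6st, -0.02 to 0.42 for Il6ra and -0.54 to 0.32 for Osm. All 3 IL-10 libraries of Il6ra (1583, 1744 and 1664) lay above the highest unstimulated one (1551).

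The response to LPS was also read within each pretreatment. In JQ1-pretreated cells 5 of the 6 genes were called (58.6% of all genes tested). Osm, which LPS raised in unpretreated cells, was lower with LPS + JQ1 than with JQ1 (-0.66, SE 0.262, DESeq2 adjusted p 0.0229), although this call was lost in 7 alternatives. These were the fits without JQ1 replicate 1 (adjusted p 0.0936), LPS + JQ1 replicate 2 (0.0649) or LPS + JQ1 replicate 3 (0.103), without replicate 1, 2 or 3 of every group (0.0558 to 0.127), and with only the groups compared (0.0799). Il6st fell by 0.285 on the log2 scale (adjusted p 1.17e-07) and Il6ra by 1.76 (adjusted p 8.06e-47). Lif rose 24.5-fold (7.98 to 122, counting error only; adjusted p 4.97e-06). In IL-10-pretreated cells 5 genes were called (67.0% of all genes tested), and Osm did not pass (0.39, interval -0.04 to 0.82, adjusted p 0.107). Osm was called in 2 alternatives, among them the fit without LPS + IL-10 replicate 3 (0.65, adjusted p 0.00176). Under total-count scaling this value for Osm turned to -0.45. Il6st fell by 1.69 and Il6ra by 2.28 in these cells, and Clcf1 rose 32.4-fold in normalised means (adjusted p 2.02e-38).

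Whether the pretreatments acted differently with and without LPS was tested as an interaction. For JQ1 it was called in 4 of the 6 genes (41.5% of all genes tested), negative for Clcf1 and Osm and positive for Il6st and Il6ra. For IL-10 it was called in 3 of 6 (7.44% of all genes tested), negative for Osm and Clcf1 and positive for Il6ra. The interactions of Il6 and Lif did not pass for either pretreatment. Their groups without LPS held only 0 to 7 reads each, so the fitted interaction of these genes had SEs of 1.30 to 1.43 on the log2 scale.

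Other genes of the pathway were read from lists of known pathway members, chosen with earlier results of these data known, and counted as higher or lower at an adjusted p under 0.05 in the same DESeq2 fit. The shares of all genes tested that were called, 64.5% with LPS, 57.3% with JQ1 and 17.2% with IL-10 during LPS stimulation and 2.81% with IL-10 alone, stand as the background to these counts. Among other gp130 ligands, Il27 and Ebi3, which encode the subunits of IL-27, rose with LPS, and Il11, Cntf, Ctf1 and Ctf2 had group means of at most 3.87 normalised counts. Il27 had 15430, 13940 and 12030 normalised counts with LPS. JQ1 brought these to 502.5, 484.4 and 638.9 (log2 fold change -4.67, adjusted p 4.73e-61), and IL-10 to 8508, 4466 and 4858 (-1.22, adjusted p 0.000175). Across the LPS groups Il27 was highest with LPS, lower with LPS + IL-10 and lowest with LPS + JQ1, with no overlap between libraries, and Il6 had the same order. Ebi3 fell by 3.63 with JQ1 (adjusted p 4.00e-135) and by 0.434 with IL-10 (adjusted p 0.0122). It was also lower without LPS, by 2.75 with JQ1 alone (adjusted p 1.60e-43) and by 0.518 with IL-10 alone (adjusted p 0.0307). The interaction with LPS was -0.88 for JQ1 (adjusted p 0.0012) and 0.08 for IL-10 (adjusted p 0.934).

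Among 6 partner receptor chains, 1 was higher and 2 were lower with LPS. Lifr, the LIF receptor chain, had 176.7, 169.1 and 162.9 normalised counts in unstimulated cells and 39.6, 24.8 and 30.7 with LPS (-2.45, adjusted p 5.38e-33). As for the 2 receptor chains of the family, JQ1 raised it during LPS stimulation, to 195.5, 158.0 and 146.5 (2.43, adjusted p 1.61e-31). IL-10 raised it to 58.2, 68.4 and 71.2 (1.10, adjusted p 1.59e-05). Without LPS Lifr was higher too, by 0.862 with JQ1 alone (DESeq2 adjusted p 8.77e-11) and by 1.126 with IL-10 alone (adjusted p 5.89e-17). Its interaction with LPS was 1.565 for JQ1 (adjusted p 7.91e-10) and -0.029 for IL-10 (adjusted p 0.984). Il11ra1 fell with LPS (-1.05, adjusted p 5.11e-21), and Osmr, the partner of gp130 for OSM, rose (adjusted p 0.00308) from at most 1.54 normalised counts per library to 5.17 to 22.1.

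Of 10 signal transducers, 7 were higher and 1 lower with LPS. The kinase gene Jak2 rose most (5.30, SE 0.113), and Stat3 went from 1494 to 2102 normalised counts to 9141 to 9900 (2.43, adjusted p 1.22e-145). With JQ1, 1 was higher and 4 were lower during LPS stimulation, a share below the background, among them Stat3 (-0.996, adjusted p 7.62e-26) and Jak2 (-1.04, adjusted p 1.17e-21). With IL-10, 4 were higher and 1 lower, and Stat3 did not pass (adjusted p 0.998, SE 0.0920). Of 5 signal inhibitors, 4 were higher and 1 lower with LPS. Socs3, the feedback inhibitor of gp130, had 28850, 28380 and 23770 normalised counts with LPS. After JQ1 these were 17530, 15260 and 17800, and after IL-10 they were 42000, 43950 and 36290. These groups did not overlap, but neither difference from LPS passed the test (-0.68, adjusted p 0.266 and 0.59, adjusted p 0.534), with an SE of 0.518. Of the other inhibitors, 3 were lower with JQ1 during LPS stimulation, namely Ptpn6 (-1.37, adjusted p 1.34e-42), Socs1 (-1.11, adjusted p 0.0009) and Ptpn2 (-0.93, adjusted p 1.37e-09). Pias3 was higher (0.90, adjusted p 2.99e-13). With IL-10 only Ptpn6 was called, and it was higher (0.48, adjusted p 1.43e-05).

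**Figure D5:**
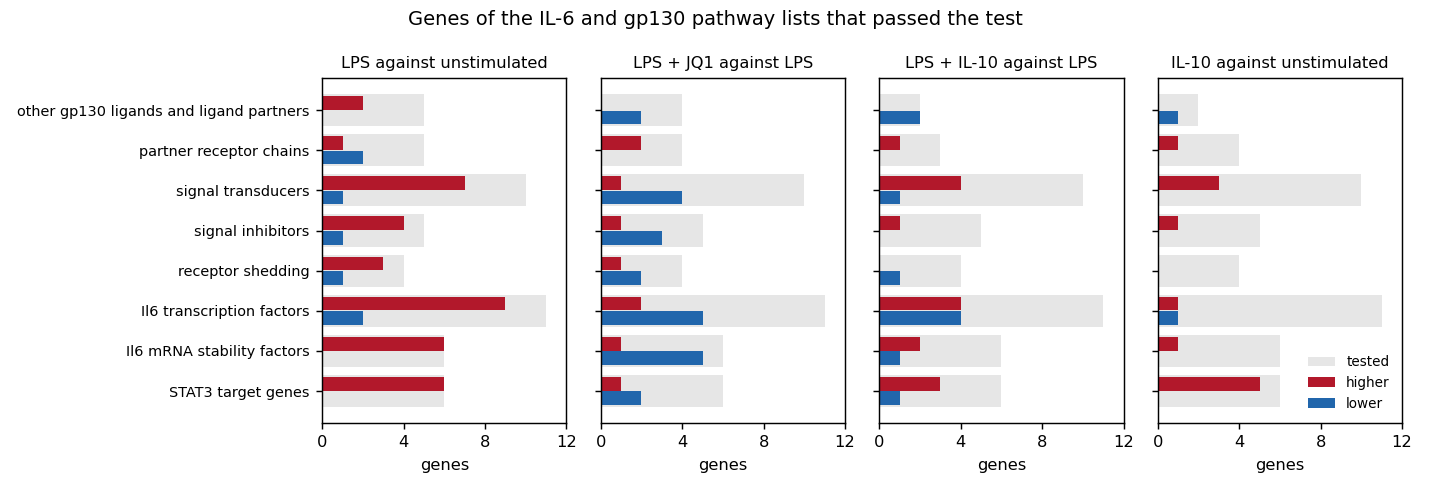
Number of genes (x axis) in each pathway list (y axis) that were tested (grey), higher (red) or lower (blue) at a DESeq2 adjusted p under 0.05, in 4 comparisons. With LPS 6 of 6 STAT3 target genes were higher, and with IL-10 alone 5 of 6.

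Of 4 genes tied to shedding of the IL-6 receptor from the cell surface, Rhbdf2, Adam17 and Rhbdf1 rose with LPS and the protease gene Adam10 fell. JQ1 lowered Adam17 during LPS stimulation (-0.95, adjusted p 2.60e-20) and IL-10 lowered it by less (-0.33, adjusted p 0.00772). Of 11 genes of transcription factors that bind or regulate Il6, 9 were higher and 2 were lower with LPS, led by Nfkbiz (5.73), Irf1 (4.38) and Nfkb1 (4.17), while Fos (-2.16) and Jun (-1.24) fell. With JQ1 during LPS stimulation 2 were higher, Jun (1.83) and Atf3 (0.31), and 5 were lower, among them Fos (-2.29), Cebpd (-1.14) and Irf1 (-1.07), a share near the background. With IL-10 the 2 C/EBP genes rose, Cebpb by 1.43 and Cebpd by 1.09, among 4 higher and 4 lower genes.

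All 6 genes of proteins that bind and stabilise or degrade Il6 mRNA were higher with LPS. With JQ1, 5 of these were lower during LPS stimulation, led by Zc3h12c, of a family of ribonucleases (-1.11, adjusted p 2.30e-14), Arid5a, whose product stabilises Il6 mRNA (-0.83, adjusted p 7.00e-09), and Rc3h2, whose product promotes mRNA decay (-0.61, adjusted p 0.00148). Factors of both kinds were thus among those that fell. Zfp36, whose product promotes decay of AU-rich cytokine mRNAs, was higher with JQ1 (1.11, adjusted p 3.99e-38) and with IL-10 (0.52, adjusted p 3.18e-08). The list of 6 STAT3 target genes was higher with LPS in 6 of 6 and rose with IL-10 alone in 5 of 6. Among these were Socs3 (3.30, adjusted p 1.23e-07), Il4ra (1.10, adjusted p 4.29e-17) and Nfil3 (1.09, adjusted p 1.90e-10). The median of this list with IL-10 alone was 1.05, against -0.01 over all genes tested. With JQ1 alone 2 were higher and 1 was lower, a share near the 45.7% of all genes tested that were called.

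The genes whose levels ran most like those of each member over the 18 libraries were found by Pearson correlation of log2(normalised count + 1), a description in which the libraries share their 6 groups. For Il6 these were Trim21 (r = 0.996), Tnfsf4 (0.996), Serpina3f (0.996), Papd7 (0.996) and Rmdn3 (0.996). The group means of Serpina3f under LPS were 1904 normalised counts without pretreatment, 79.3 after JQ1 and 409.3 after IL-10. In the same order those of Tnfsf4 were 415.5, 40.4 and 181.1. The means of Trim21 (6034, 2106 and 5200), Papd7 (6630, 2447 and 5093) and Rmdn3 (2726, 1221 and 2139) fell by less. A high correlation with Il6 thus did not mean an equal fall after JQ1 or IL-10. Clcf1 ran most like Il10ra, the IL-10 receptor gene (0.990), Arid2 (0.989) and Gm12185 (0.980). Il6st ran most like Mknk2 (0.996), which had mean counts of 3218 in unstimulated cells, 118.9 with LPS and 3328 with LPS + JQ1, followed by Tex2 (0.992) and Tmem64 (0.988). Il6ra ran most like Dgkz (0.992), Bin2 (0.991) and Fnip2 (0.990), and Osm most like 2010111I01Rik (0.966), Gm16907 (0.948) and Rgs1 (0.944). No such search was made for Lif because of its low counts, at a mean of 16.8.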

How the data were processed

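RNA-seq was measured in 18 libraries of Il10-/- BMDMs, in 6 groups of 3 taken from the sample titles. Per the labels and the methods of the study, the authors made stranded, ribosomal RNA-depleted libraries, extracted reads with TagDust, used STAR for alignment to mm9 and RSEM 1.2.31 at default settings for gene quantification. The deposited expected counts are the authors' estimates of reads per gene, fractional for 5.40% to 6.63% of the genes in a library, and rounding was applied here. TPM, the abundance scaled by length, was used as deposited by the authors. The authors' FPKM values and lengths were not used here. Counting without regard to strand is the default of RSEM.

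Changes were tested with the Wald test of DESeq2 1.42.0 (R 4.3.3) in 1 model of the 18 libraries that held the 6 groups and no other term, with median-of-ratios factors, independent filtering and Benjamini-Hochberg adjustment over all genes, at 0.05. Intervals are at 95%. Alternatives were edgeR 4.0.16, limma 3.58.1 on log2(TPM + 1) and log2(TPM + 0.1), other scalings and filters (such as at least 10 counts in at least 3 libraries), lane, the groups compared alone, and leaving out libraries. For genes with few reads, folds are ratios of counts summed over libraries, with intervals for counting error only, since without molecular identifiers several reads may come from 1 molecule.

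The labels describe matched cultures from 3 mice, so replicate numbers were taken to pair libraries. The deviations of libraries with the same number from their group means had mean correlations of -0.117 to 0.566 across comparisons. Replicates differed by more than sampling noise (chi-square per gene 4.14 to 30.5).

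The 6 genes and all lists were chosen with earlier results of these data known, and 1 listed gene is not reported here. Named genes were the members, Il10, and per list and comparison up to 3 of the largest rises and falls (adjusted p under 0.05, mean of at least 100, same direction in 3 pairs), or any gene of a list where 5 or fewer are counted. Genes named by likeness were the 5 highest for Il6 and the 3 highest for the others. Socs3 and Pdgfrb in single libraries and group ranges, and Col1a1, Col1a2, Lck and Cd5, were singled out after their values were seen. Positions are from GENCODE vM1 on mm9.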

Additional observations from a re-analysis of the deposited data

Results flagged for a closer look

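The effect of JQ1 differed with and without LPS for 4 of the 6 genes, by the DESeq2 interaction test over all genes. The interaction was -5.97 for Clcf1 (log2 scale, SE 0.662, adjusted p 5.37e-18), -2.20 for Osm (SE 0.338, adjusted p 1.01e-09), 1.37 for Il6st (SE 0.0790, adjusted p 5.00e-64) and 1.40 for Il6ra (SE 0.180, adjusted p 1.41e-13), each in the same direction in 3 of 3 replicate pairs. The effect of IL-10 differed with and without LPS for Osm (-1.15, SE 0.307, adjusted p 0.00407), Clcf1 (-1.68, SE 0.559, adjusted p 0.0379) and Il6ra (0.88, SE 0.180, adjusted p 5.38e-05), again in 3 of 3 pairs. The interaction of IL-10 for Clcf1 was lost in 14 alternatives (adjusted p 0.0585 to 0.270), among them edgeR (0.192) and the fits without replicate 2 or 3 of the unstimulated group, 1 or 2 of IL-10, 1 or 3 of LPS, or 2 or 3 of LPS + IL-10 (0.0599 to 0.212). For Osm it was lost without replicate 2 of every group (adjusted p 0.352).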

How the results depend on the processing

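Of 643 values of the 60 fold changes under 11 alternatives, 618 kept their side of the threshold with no called change turned round. Of 594 values with libraries left out, 559 did. Where neither fit gave a call the direction could differ, as it did in 34 values. The call of Il6 with JQ1 alone was lost in several fits. Its fitted log2 values, against a group with 0 reads, differed between tools and are no measure of a fold. They were -3.59 with DESeq2, and without a call with edgeR -4.25, limma on log2(TPM + 1) with or without a filter -0.305 and on log2(TPM + 0.1) -1.36, and ranged from -4.14 to -1.52 with libraries left out. Its resting level rests on 7 reads. The fall of Il6 with IL-10 during LPS stimulation ranged from -2.15 to -1.47, with -1.66 and no call without replicate 3 of every group. The number of the 6 genes called there was 3 to 5, and for the interaction of IL-10 and LPS 1 to 3. The interaction of JQ1 and LPS for Il6 (-1.30) was called with limma, at -4.23 with or without a filter and -3.20 with the smaller pseudocount. That of IL-10 and LPS for Il6 (1.40) turned to -1.50 with limma and the filter. These groups without LPS held 0 to 7 reads of Il6. The cause was not tested.

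Counts over all genes moved by more than 1.5 times in some cases. For IL-10 alone there were 358 calls, against 230 with edgeR, 205, 122 and 171 with limma on log2(TPM + 1), on log2(TPM + 0.1) and after filtering, and 130 to 230 with unstimulated replicate 3, IL-10 replicate 1 or any 1 replicate number left out. For LPS + IL-10 against LPS there were 1968, against 1089 with only these groups and 874 to 1249 without 1 replicate number. For the interaction of IL-10 and LPS there were 804, against 497 with limma on log2(TPM + 0.1) and 290 to 469. Without replicate 1 of every group, JQ1 alone gave 4049 calls in place of 6248 and its interaction with LPS 3471 in place of 5279.

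With replicate number as a block, the pairing changed no call of the 6 genes (Il6 with JQ1 during LPS stimulation -4.86, adjusted p 9.71e-20, and with IL-10 -1.89, adjusted p 0.00271). Depth limits Lif most, with at most 55 reads in a library, and Il6 without LPS.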

Other observations

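The ratio of Il6st to Il6ra in TPM, a measure of the shared chain against the IL-6 binding chain, differed between groups. Resting cells without pretreatment gave 0.865, 0.808 and 0.953. JQ1 alone gave 1.39, 1.18 and 1.31, and IL-10 alone gave 0.783, 0.742 and 0.781. Under LPS the ratio was 2.40, 2.29 and 2.81 without pretreatment, 3.17, 3.70 and 3.99 after JQ1, and 1.33, 0.825 and 1.39 after IL-10. The LPS + IL-10 libraries therefore lay below every LPS library, although Il6st itself was not called between these groups. These ratios are given as values with no test.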
